A study of Mus musculus with 360 samples.

Results

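The genes described here are the mouse Hox genes together with Tbx4, Pitx1 and Tbx5. Every row of the count tables named Hoxa, Hoxb, Hoxc or Hoxd plus a number was taken, which gave 39 Hox genes, and the other 3 were added by name. The resulting 42 genes stood among 24015 gene rows and comprised 11 Hoxa, 10 Hoxb, 9 Hoxc and 9 Hoxd genes. Their reads were counted in single skeletal stem and progenitor cells of wild type CD-1 mice at postnatal day 3. All cells had been sorted as CD51+ and CD200+ and as negative for CD45, Ter119, Tie2, Thy1, 6C3 and CD105, so the tissue was the only difference the labels gave between groups. Of the tissues, 3 were sutures, the fibrous joints of the skull vault, namely the posterior frontal (PF), the sagittal (SAG) and the coronal (COR) suture. The other was the tibial growth plate (GP), which served the study as the long bone reference. Each tissue filled 2 plates of its own. The cells came from pooled mice and no animal was named for any cell, so each tissue is 1 sample, plate and tissue cannot be told apart across tissues, and no test between tissues was possible.

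Hox genes encode homeodomain transcription factors that give cells along the body axis and along the limb their positional identity. They lie in 4 clusters, and genes with the same number in different clusters, called paralogs, descend from a common ancestor. Low numbers are classically used towards the head and high numbers towards the tail and the tip of the limb, and the paralogs of number 11 are known for patterning the middle segment of the limb, which in the leg holds the tibia. Pitx1 and Tbx4 are transcription factors of the developing hindlimb, and Tbx5 is their counterpart in the forelimb. Much of the skull vault and its sutures arises from cranial neural crest, a cell population that lacks Hox expression at its most anterior levels.

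As sequence context, the 250 bases before an annotated transcript start are printed for 3 genes read often in GP cells (Hoxa9, Hoxa10 with both of its starts, and Tbx4), for Hoxd8, the most often read Hoxd gene, and for Hoxd13, which was read in no cell. RefSeq windows (table of build GRCm38.p6) matched 23 of the 42 genes and gave 25 windows. Each matched exactly 1 place near its gene in NCBIM37, the genome build the authors used as mm9. Matches elsewhere in the genome were not looked for. The 6 windows printed were taken from the 10 that touch no annotated exon. Capitals mark matches on either strand to TATAAA (the TATA box), CCAAT (the CCAAT box), GGGCGG (the GC box) or TGATNNAT (a motif of Hox and Pbx protein pairs), which may overlap one another.
Hoxa9, chr6:52177370-52177619, minus strand, in a Hoxa9 intron: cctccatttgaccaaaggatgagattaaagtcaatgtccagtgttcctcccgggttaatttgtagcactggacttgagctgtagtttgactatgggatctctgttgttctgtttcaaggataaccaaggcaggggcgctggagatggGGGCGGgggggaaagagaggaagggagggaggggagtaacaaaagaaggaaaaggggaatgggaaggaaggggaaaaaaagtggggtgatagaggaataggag
Hoxa10, first start, chr6:52190854-52191103, minus strand, just before the annotated gene: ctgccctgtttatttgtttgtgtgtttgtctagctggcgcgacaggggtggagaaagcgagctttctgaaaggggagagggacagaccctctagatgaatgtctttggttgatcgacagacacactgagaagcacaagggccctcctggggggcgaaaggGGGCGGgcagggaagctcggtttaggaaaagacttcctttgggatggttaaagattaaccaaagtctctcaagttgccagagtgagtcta
Hoxa10, second start, chr6:52184939-52185188, minus strand, in a Hoxa10 intron: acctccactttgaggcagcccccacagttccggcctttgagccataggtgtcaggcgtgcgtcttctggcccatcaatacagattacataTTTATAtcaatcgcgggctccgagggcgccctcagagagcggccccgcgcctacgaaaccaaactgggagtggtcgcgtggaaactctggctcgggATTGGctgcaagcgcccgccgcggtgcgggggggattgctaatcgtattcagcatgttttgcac
Tbx4, chr11:85710017-85710266, plus strand, in a Tbx4 intron: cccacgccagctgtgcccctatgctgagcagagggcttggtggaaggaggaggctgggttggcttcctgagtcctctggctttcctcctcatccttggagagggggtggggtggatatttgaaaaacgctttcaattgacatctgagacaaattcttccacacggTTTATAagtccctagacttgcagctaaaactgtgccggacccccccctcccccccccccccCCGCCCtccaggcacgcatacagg
Hoxd8, chr2:74542422-74542671, plus strand, just before the annotated gene and within the span of 1700109F18Rik: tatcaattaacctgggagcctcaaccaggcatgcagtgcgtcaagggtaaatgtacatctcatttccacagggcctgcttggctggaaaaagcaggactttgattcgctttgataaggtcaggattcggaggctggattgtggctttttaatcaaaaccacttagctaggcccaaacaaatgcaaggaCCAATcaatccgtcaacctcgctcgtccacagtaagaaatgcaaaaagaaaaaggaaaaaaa
Hoxd13, chr2:74506032-74506281, plus strand, before the annotated gene: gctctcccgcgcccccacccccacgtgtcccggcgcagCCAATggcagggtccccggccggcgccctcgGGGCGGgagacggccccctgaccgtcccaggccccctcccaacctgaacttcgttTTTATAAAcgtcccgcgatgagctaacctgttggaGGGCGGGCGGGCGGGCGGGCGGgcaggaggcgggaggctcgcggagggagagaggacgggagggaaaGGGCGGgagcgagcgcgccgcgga
The second Hoxa10 window held 1 TATA box and 1 CCAAT box, the first 1 GC box, and the Tbx4 window 1 TATA box and 1 GC box. The Hoxa9 window held 1 GC box, and the Hoxd8 window 1 CCAAT box. The Hoxd13 window held 2 TATA matches, 1 CCAAT box and 7 GC box matches. It held 31 CpG dinucleotides, against 3 in the Hoxa9 window, 7 and 20 in the Hoxa10 windows and 6 each in the Tbx4 and Hoxd8 windows. None of the 6 windows held TGATNNAT, but 16% of all 25 member windows did. Of those 25, 20% held a TATA box, 56% a CCAAT box and 44% a GC box, and the median number of CpG dinucleotides was 12. Among all 32851 RefSeq promoter windows cut to the same 250 bases, 12.4% held a TATA box, 33.8% a CCAAT box, 32.7% a GC box and 7.68% the TGATNNAT motif, and the median number of CpG dinucleotides was 6. These matches describe letters and not binding.

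A cell was kept with at least 500 genes and 10000 reads, which left 325 of 360 cells. GP kept 78 cells (20 on plate 1 and 58 on plate 2), PF kept 87, SAG 86 and COR 74. The ribosomal RNA gene Rn45s took 26.4% to 30.5% of reads in PF, COR and GP and 80.3% in SAG, where plate 2 stood apart with 86.8%, and it was left out of every total below. The remaining reads of a GP cell numbered 3628 to 871328 with a median of 369308, and the suture medians were 312083 (PF), 184673 (SAG) and 448803 (COR). SAG cells of plate 2 had a median of 875 genes against 2891.5 on SAG plate 1, so a gene with no read there was looked for at lower complexity. Intervals given below are exact 95% binomial intervals for shares of cells and exact 95% Poisson intervals for summed reads, and they cover counting error only. A level is the summed reads of a gene per 1000000 summed reads other than Rn45s (CPM). Where a tissue had no read, 3 counts over all cells of that tissue set the limit.

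Of 78 GP cells, 65 held a read of at least 1 of the 42 genes, a share of 83.3% (73.2 to 90.8). The same held for 2 of 247 suture cells, 0.81% (0.0982 to 2.89). On GP plate 1 the share was 90% (18 of 20 cells) and on plate 2 it was 81% (47 of 58 cells). Both suture cells were PF cells, 1 on each plate, and gave PF a share of 2.3% (0.28 to 8.06). No member had a read in any of 86 SAG cells, which allows a share of up to 3.49%, nor in any of 74 COR cells, which allows up to 4.05%. The 2 GP plates therefore stood far above all 6 suture plates, and no interval of a GP plate met that of a suture plate. Summed over cells, the 42 genes took 7538 reads in GP, a level of 264.8 CPM (258.8 to 270.8), with 326.9 CPM on plate 1 and 251.7 CPM on plate 2. In all sutures together they took 51 reads.

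**Figure D1:**
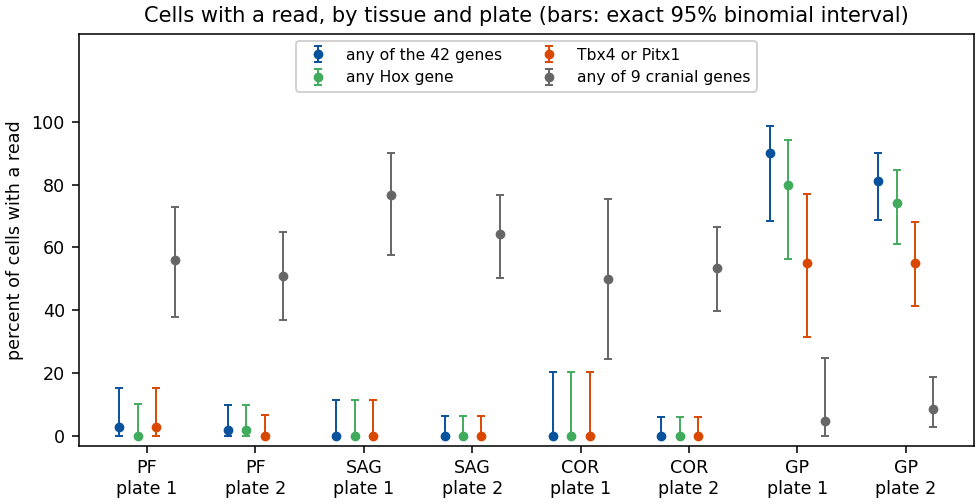
Percent of cells (vertical axis) with at least 1 read of any of the 42 genes, of any Hox gene, of Tbx4 or Pitx1, or of any of 9 cranial genes, for the 2 plates of each tissue; points are shares and bars exact 95% binomial intervals. The GP plates sit at 90% and 81% for the 42 genes, the suture plates at 0% to 2.94%, and the cranial genes run the other way.

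For each suture, a gene was called higher in GP where log2((CPM+1)/(CPM+1)) was at least 1 and all 4 ratios of a GP plate to a suture plate had the same sign. Of the 42 genes, 12 were called higher in GP than in PF, where 8.08% of 14567 genes with a read were called in that direction. The count against SAG was also 12, beside 16.3% of 14393 genes, and against COR it was 12, beside 6.7% of 14604 genes. The names were the same against each suture, namely Pitx1, Tbx4, Hoxa3, Hoxa5, Hoxa7, Hoxa9, Hoxa10, Hoxa11, Hoxc8, Hoxc9, Hoxc10 and Hoxd8. The 3 contrasts share the GP cells, so their agreement is not independent. Hoxc4 and Hoxc5, with more reads than Hoxa3, Hoxa5 and Hoxc8, were not called because all of their reads lay on GP plate 2. Against COR the log2 ratio was 6.06 for Hoxa10 (lowest plate ratio 6), 5.83 for Pitx1 (5.53 to 5.88) and 4.69 for Hoxa11 (4.05 to 6.13), and 1.98 for Hoxc8, the smallest of the 12. No member was called lower in GP than in any suture. Because 21 of the 42 genes had no read in any cell, the median log2 ratio over all 42 was 0 against PF and 0.02 against SAG and COR, and over all genes with a read it was -0.05, 0.27 and -0.04. A stricter description counted genes read in at least 4 GP cells and in no suture cell. Of the 11 members read in at least 4 GP cells, 10 met it, beside 0.377% of the 10354 genes read in that many GP cells. Tbx4 was the exception, through 1 PF cell.

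Pitx1, which specifies hindlimb identity upstream of Tbx4, was the member found in most cells. Its reads were found in 39 of 78 GP cells, 50% (38.5 to 61.5), that is 8 of 20 on plate 1 and 31 of 58 on plate 2. Those 39 cells held 1 to 172 reads with a median of 31. Its level was 55.7 CPM (53 to 58.5), with 45.1 CPM on plate 1 and 57.9 CPM on plate 2, against 0 reads in every suture. Set against the limit of 3 reads per suture, its level in GP was at least 563-fold higher than in PF, at least 320-fold higher than in SAG and at least 595-fold higher than in COR. Such bounds hold for counting error alone. Amplified reads are not separate molecules, and GP cells with Pitx1 brought a median of 31 reads each, more than the 3 assumed.

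Tbx4, a T-box factor of hindlimb outgrowth, was read in 15 GP cells, 19.2% (11.2 to 29.7), 4 of 20 on plate 1 and 11 of 58 on plate 2. Cells with a read held 6 to 200 reads with a median of 32. Its level was 22.5 CPM (20.8 to 24.4), with 29.6 CPM on plate 1 and 21.1 CPM on plate 2, and it was 97.6-fold above the PF level, which rested on 7 reads of 1 cell. SAG and COR had no Tbx4 read. Tbx5, the forelimb counterpart, had no read in any GP or suture cell, which in GP allows a share of up to 3.85% of cells. Pitx1 and Tbx4 were read together in 11 cells, which is 73.3% of the cells with Tbx4 and 28.2% of those with Pitx1.

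The most read Hox genes had the numbers 9 to 11 and lay in the a and c clusters. Hoxa10, of the paralog group known for patterning the upper segment of the limb, was read in 27 GP cells, 34.6% (24.2 to 46.2), 7 of 20 on plate 1 and 20 of 58 on plate 2. Cells with a read held 1 to 314 reads with a median of 55. The Hoxa10 level was 65.7 CPM (62.7 to 68.7), with 79.3 CPM on plate 1 and 62.8 CPM on plate 2. Against the limit for a tissue with no read, this level was at least 377-fold above SAG and at least 663-fold above PF. These bounds, too, hold for counting error alone. A single missed suture cell with the median of 55 reads would exceed that limit and lower them. The share of GP cells with Hoxa10 was nearly equal on the plates, at 35% and 34.5%.

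Hoxa11, of the paralog group needed for the shape of the tibia and fibula, was read in 22 GP cells, 28.2% (18.6 to 39.5). It was read in 8 of 20 cells on plate 1 and in 14 of 58 on plate 2, with 1 to 143 reads and a median of 22.5. Its level differed more between the plates than that of the other 6 genes read in at least 10 cells, at 69 CPM on plate 1 and 15.5 CPM on plate 2. A single plate 1 cell held 143 of the 341 plate 1 reads. Hoxa9 was read in 16 GP cells, 20.5% (12.2 to 31.2), 4 of 20 on plate 1 and 12 of 58 on plate 2, with 2 to 165 reads and a median of 42.5. The Hoxa9 level was 55.1 CPM on plate 1 and 28.7 CPM on plate 2.

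Hoxc10, which lies at the corresponding place in the c cluster and is known for hindlimb and lumbar expression, was read in 23 GP cells, 29.5% (19.7 to 40.9). It was read in 6 of 20 cells on plate 1 and 17 of 58 on plate 2, with 1 to 72 reads and a median of 14. Its level ran the other way between plates from Hoxa9 to Hoxa11, at 10.9 CPM on plate 1 and 21.2 CPM on plate 2. Hoxc9 was read in 10 GP cells, 12.8% (6.32 to 22.3), 2 of 20 on plate 1 and 8 of 58 on plate 2, with 1 to 40 reads and a median of 9.5. The Hoxc9 level was 1.42 CPM on plate 1 and 5.44 CPM on plate 2. With 2 plates, none of these plate differences was tested.

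**Figure D2:**
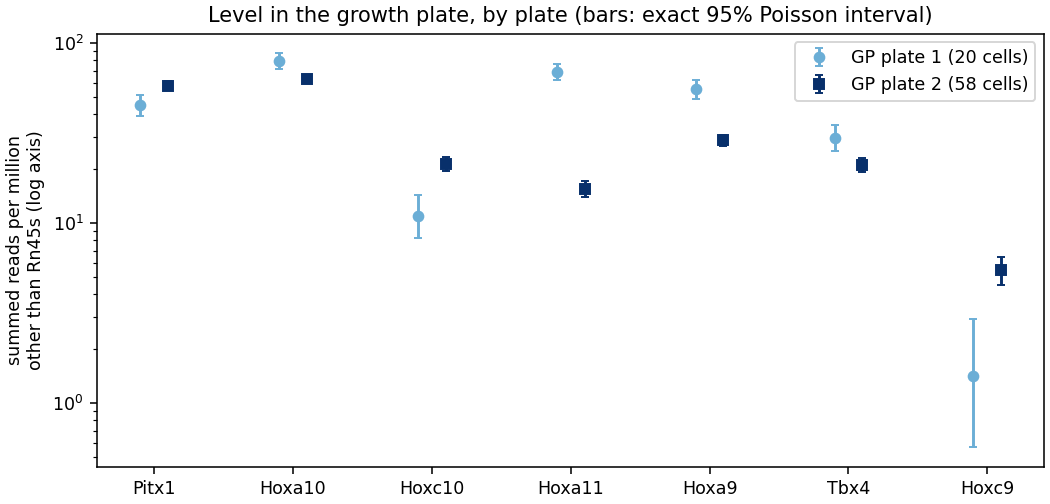
Level in GP, as summed reads per 1000000 reads other than Rn45s (vertical log axis), of the 7 genes read in at least 10 GP cells, for plate 1 (circles) and plate 2 (squares); bars are exact 95% Poisson intervals of the summed reads. Hoxa11 differs most in CPM, from 69 on plate 1 to 15.5 on plate 2, and Pitx1 and Hoxa10 stay within 45.1 to 79.3.

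Levels were set side by side between genes only per kilobase of annotated exon. On that scale Pitx1 stood at 21 CPM per kb, Hoxa10 at 17.1, Hoxc10 at 10.2, Hoxa9 at 9.52, Hoxa11 at 9.22 and Tbx4 at 6.63. The plates did not keep this order. On plate 1 the highest level per kb was that of Hoxa11 (25.7), followed by Hoxa10 (20.7) and Pitx1 (17), and on plate 2 Pitx1 (21.8), Hoxa10 (16.4) and Hoxc10 (11.1) led, with Hoxa11 at 5.77. Hoxd8 (3.35), Hoxa7 (3.30) and Hoxc9 (1.95) lay below these 6 in the sum of both plates, and all other members lay at 1.59 CPM per kb or less.

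The remaining members with a read were each found in 6 GP cells or fewer. Hoxd8 was read in 6 cells with 262 reads, of which 172 came from 1 plate 2 cell, and its level of 9.20 CPM was 3.23 CPM without that cell. Hoxa7 was read in 5 cells (12 to 77 reads each), Hoxc4 in 4 cells, all on plate 2 (11 to 56 reads), and Hoxc8 in 4 cells (3 to 43 reads). Hoxa3, Hoxa5 and Hoxc6 had a read in 3 cells each, and Hoxc5 and Hoxd3 in 2 cells each. Hoxa13, Hoxb2, Hoxb7 and Hoxb9 had a read in 1 cell each, with 2, 1, 9 and 50 reads. Among the 12 called genes, leaving out the GP cell with most reads of the gene moved the level by over 1.5 times for Hoxd8, Hoxa3 (3.09 to 1.15 CPM), Hoxa5 (2.99 to 1.61 CPM) and Hoxc8 (2.95 to 1.45 CPM), and all 12 remained called against all 3 sutures.

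By cluster, a Hoxa gene was read in 45 GP cells, 57.7% (46 to 68.8), and a Hoxc gene in 37 cells, 47.4% (36 to 59.1). A Hoxd gene was read in 7 cells, 8.97% (3.68 to 17.6), and a Hoxb gene in 3 cells, 3.85% (0.80 to 10.8). The intervals of Hoxa and Hoxc overlapped each other and lay above those of Hoxb and Hoxd. Of the members' 7538 GP reads, Hoxa genes took 52.7%, Tbx4 and Pitx1 29.6%, Hoxc genes 13.4%, Hoxd genes 3.6% and Hoxb genes 0.80%. The members with a read were 8 of 11 Hoxa, 3 of 10 Hoxb, 6 of 9 Hoxc and 2 of 9 Hoxd genes. The Hoxd share of cells was 4 of 20 on plate 1 and 3 of 58 on plate 2, and the Hoxb share was 2 of 20 and 1 of 58.

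By paralog number, the share of GP cells was highest at number 10 and at or near 0 beyond 11. A gene of number 8 was read in 12.8% of GP cells, of number 9 in 29.5%, of number 10 in 50% (38.5 to 61.5) and of number 11 in 28.2%. No gene of number 12 was read, and number 13 rested on 2 Hoxa13 reads in 1 cell. Numbers 2 to 7 ranged from 1.28% to 7.69%. Numbers 9 to 13 together were read in 53 cells, 67.9% (56.4 to 78.1), and numbers 1 to 8 in 27 cells, 34.6% (24.2 to 46.2). The shares for numbers 9 to 13 were 70% on plate 1 and 67.2% on plate 2.

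**Figure D3:**
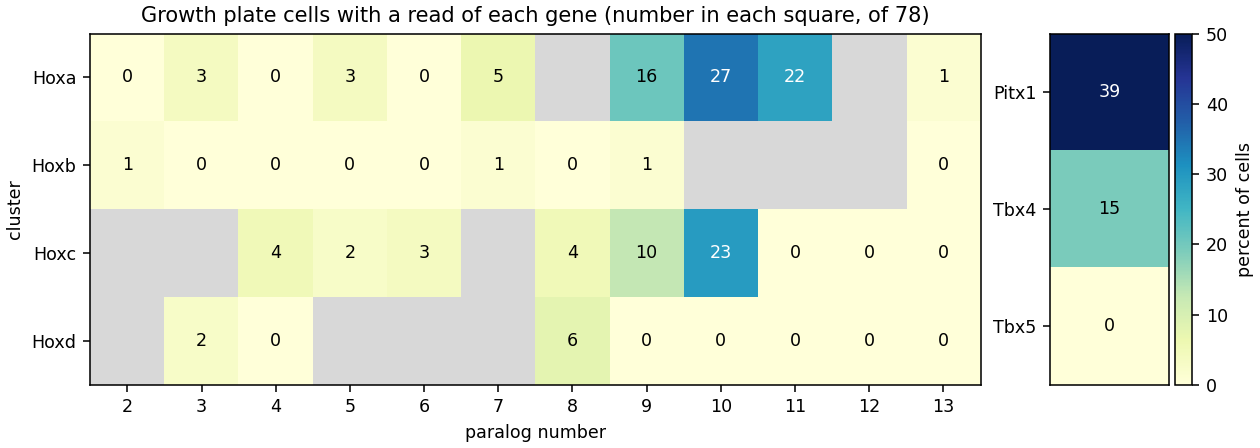
Share of the 78 GP cells with a read of each gene, by cluster (rows) and paralog number from 2 to 13 (columns), with Pitx1, Tbx4 and Tbx5 at the right; color is percent of cells, the number in a square counts cells, and grey marks a paralog the cluster lacks among the rows. The high values are Hoxa9 to Hoxa11, Hoxc10 and Pitx1, with 0 cells for Hoxc11 to Hoxc13 and Hoxd9 to Hoxd13.

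Which paralogs were at 0 was as uneven as which were read. Of the 3 genes of number 11, Hoxa11 was read in 22 GP cells while Hoxc11 and Hoxd11 had no read in any cell. Of the 3 genes of number 10, Hoxd10 had none. All of Hoxd9 to Hoxd13, Hoxc11 to Hoxc13, Hoxb1, Hoxb3 to Hoxb6, Hoxb8 and Hoxb13, and also Hoxa2, Hoxa4, Hoxa6, Hoxd1 and Hoxd4, had no read in any of the 360 deposited cells. Together with Tbx5 these are 21 of the 42 genes. For each of them, 0 of 78 GP cells allows a share of up to 3.85%, which does not bound how many cells expressed the gene. Of all 24015 gene rows, 43.5% had no read in any GP cell. The d cluster was thus read at Hoxd8 (chr2:74542672-74545990) and Hoxd3 (chr2:74549986-74586331), and not at the 5 genes on the other side of Hoxd8, from Hoxd9 (chr2:74535737-74538265) to Hoxd13 (chr2:74506367-74509656). On the Hoxd3 side, Hoxd4 (chr2:74560035-74567217) and Hoxd1 (chr2:74601037-74603200) had no read either. Hoxd3 rested on 9 reads in 2 cells and shares 35.8% of its exon bases with other genes. These reads therefore do not place a boundary in the cluster.

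The Picelli protocol used for these libraries does not mark the strand of a transcript, and 18 of the 42 genes share exon bases with another gene in GENCODE vM1, so their reads could be split or dropped, depending on counting options that are not given. The share was 38.6% of exon bases for Hoxa11, where the other gene is its antisense partner, 67.4% for Hoxd4, 49.4% for Hoxb2 and 40.4% for Hoxb8. It was 5.67% for Hoxa9 and 8.70% for Hoxc10, and the other 24, among them Hoxa10, Hoxc9, Hoxc11, Hoxd8, Hoxd9, Hoxd12, Hoxd13, Pitx1, Tbx4 and Tbx5, shared none. The antisense row, Hoxa11os, was read in 20 GP cells with 628 reads and in no suture cell. Hoxa11 and Hoxa11os were read together in 11 cells and at least 1 of them in 31 cells, and without strand their reads cannot be told apart where the exons overlap.

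Most GP cells carried at least 2 of these genes. The median was 2 members per cell, with a range of 0 to 7, and 51 of 78 cells (65.4%) held at least 2. No member was read in 13 cells, 1 in 14 cells, 2 in 14, 3 in 17, 4 in 9, and 5 or more in 11. The mean was 2.55 on plate 1 and 2.38 on plate 2, with a median of 2 on both. The pair of cells with 7 members, 1 on each plate, shared Hoxa9, Hoxa10, Hoxa11 and Hoxc10.

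**Figure D4:**
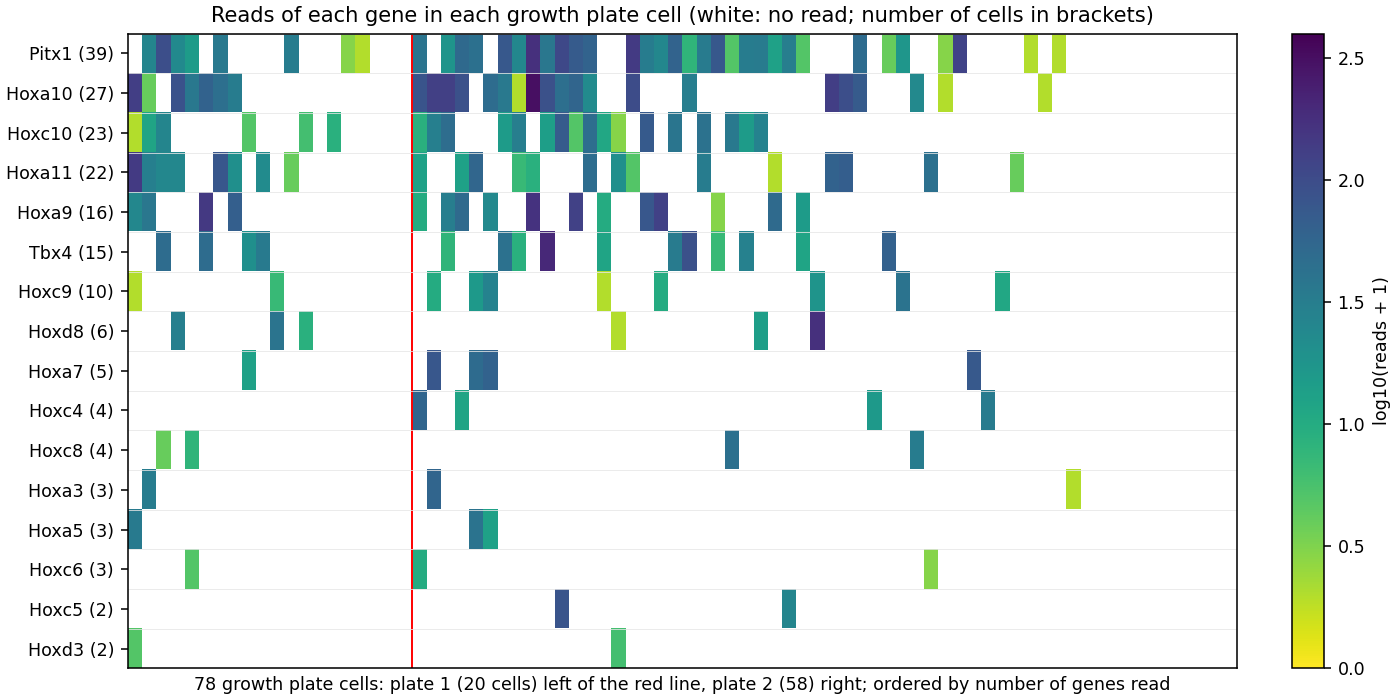
Reads of the 16 members found in more than 1 GP cell (rows, ordered by the number of cells with a read) in each of the 78 GP cells (columns), colored by log10(reads + 1) with white for no read; plate 1 is left of the red line. Both plates hold reads of the top 9 genes, and no pair of genes fills the same set of cells.

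The number of members read moved with depth. Across the 78 GP cells, which share a tissue and 2 plates, it was related to reads other than Rn45s with Pearson's r = 0.44 and Spearman's rho = 0.45, and to genes per cell with r = 0.52 and rho = 0.49. These coefficients are descriptions across cells. Cells with no member had a median of 150294 such reads, those with 1 or more had 396118, and those with 5 or more had 584426. After thinning each cell to 100000 reads other than Rn45s, 67 GP cells remained, 56 of them (83.6%) had a member, the median was again 2, and rho with the original depth was 0.24. The cells without a member ranged from 4687 to 587098 such reads, so they were not only the shallow ones.

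**Figure D5:**
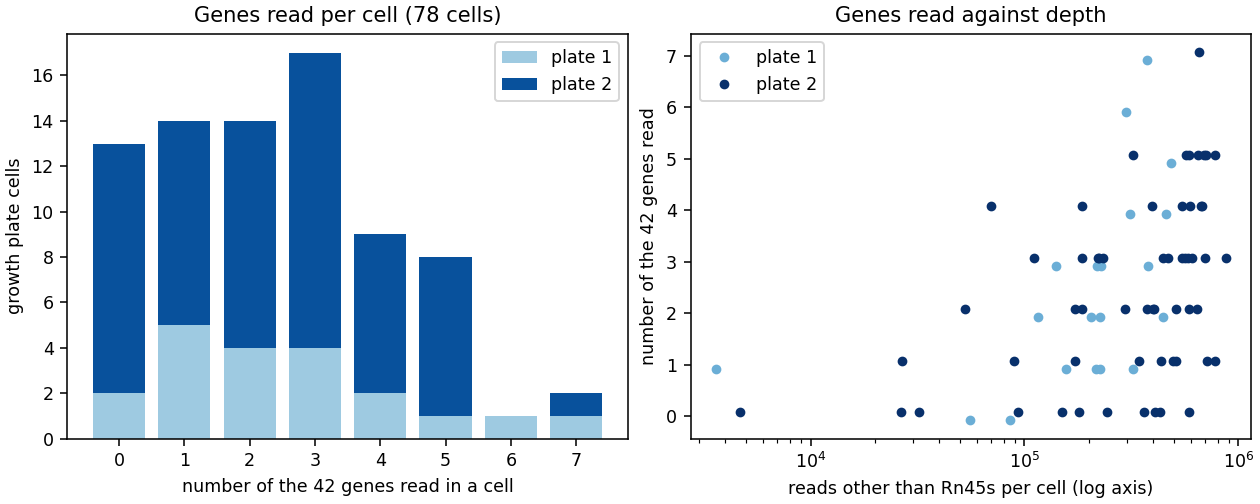
Left, number of GP cells (vertical axis) by the number of the 42 genes read in a cell, with plate 1 and plate 2 stacked; right, that number against reads other than Rn45s per cell (log axis), 1 point per cell, with plates offset slightly for display. The counts peak at 17 cells with 3 genes, and the 11 cells with 5 or more genes all hold at least 297450 reads.

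Members of 1 cluster were often read apart, and a gene missed in a cell cannot be told from one not expressed there. Of the 41 cells with a read of Hoxa9, Hoxa10 or Hoxa11, 23 held 1 of these neighbours, 12 held 2 and 6 held all 3. Hoxa10 and Hoxa11 were read together in 13 cells, which is 48.1% of the cells with Hoxa10 and 59.1% of those with Hoxa11. Over all GP cells, Hoxa10 was read in 34.6% and Hoxa11 in 28.2%, so each was read more often beside the other. Hoxa10 and Hoxa9 met in 10 cells, 62.5% of those with Hoxa9. Across clusters, a Hoxa and a Hoxc gene were both read in 25 cells, only Hoxa in 20, only Hoxc in 12 and neither in 21. The paralogs Hoxa10 and Hoxc10 met in 11 cells, 40.7% of the cells with Hoxa10 and 47.8% of those with Hoxc10. Hoxc10 was read in 29.5% of all GP cells. Pitx1 or Tbx4 was read in 43 cells, of which 37 also held a Hox gene, and 22 cells held a Hox gene with neither. Pitx1 was read in 66.7% of cells with Hoxa10, 69.6% of those with Hoxc10, 63.6% of those with Hoxa11 and 30% of those with Hoxc9, beside 50% of all GP cells. Tbx4 met Hoxc10 in 9 cells and Hoxa11 in 3 cells, 60% and 20% of its 15 cells. Over all GP cells, Hoxc10 was read in 29.5% and Hoxa11 in 28.2%. With the other genes read in at least 10 GP cells, Tbx4 met from 1 (Hoxc9) to 11 cells (Pitx1), and no such pair was tested. After thinning, Tbx4 met Hoxc10 in 8 and Hoxa11 in 3 of 67 cells, and deeper cells enter every such pair more often.

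The GP cells held markers of several cell types, often in the same cell. A chondrocyte marker was read in 82.1% of them, an osteoblast marker in 82.1% and a fibroblast marker in 93.6%. Single genes of a list differed. Col2a1, the collagen of cartilage, was read in 26.9% of GP cells and Acan, the cartilage proteoglycan, in 65.4%. The bone matrix gene Ibsp was read in 23.1% and Spp1 of the same list in 53.8%. Col3a1, a collagen of fibrous tissue, was read in 87.2%, Dpt of the same list in 1.28%, and the tendon gene Tnmd in 52.6%. Acan was also read in 40.2% of PF, 64% of SAG and 47.3% of COR cells. A member was read in 17 of 21 cells with Col2a1 (81%) and in 48 of 57 cells without it (84.2%), and in 14 of 18 cells with Ibsp (77.8%) and 51 of 60 without it (85%). In SAG, Col2a1 was read in more cells than in GP (56 of 86), and no member was. Neither GP split separated the shares beyond their intervals. With Pdgfra, a receptor of mesenchymal cells, the shares were 30 of 31 (96.8%, 83.3 to 99.9) with a read and 35 of 47 (74.5%, 59.7 to 86.1) without. Tbx4 was read in 11 of 31 cells with Pdgfra (35.5%, 19.2 to 54.6) and in 4 of 47 without (8.51%, 2.37 to 20.4). Cells with Pdgfra were deeper, at a median of 396118 against 296151 reads, and after thinning the Tbx4 shares were 34.5% of 29 cells and 10.5% of 38 cells. This contrast was picked after its values were seen, out of 9 readouts in each of 4 splits, no test was run, and the part of depth in it was not tested.

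Other cell type markers were compared between the 65 GP cells with a member and the 13 without. A tenocyte marker (Scx, Tnmd or Mkx) was read in 70.8% and 23.1%, a fibroblast marker in 98.5% and 69.2%, a chondrocyte marker in 84.6% and 69.2% and an osteoblast marker in 81.5% and 84.6%. A pericyte or smooth muscle marker was read in 23.1% and in 0 cells, and a neural or glial marker in 12.3% and 7.69%. A haematopoietic marker was read in 8 of 65 and 2 of 13 cells, all but 1 of these through Laptm5. The 4 endothelial and 4 skeletal muscle markers had no read in GP. The 13 cells without a member had the lower median depth given above, and the part of depth in these differences was not tested.

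In the sutures, a member was read in 2 cells, with 4025 and 3655 genes. The first, on PF plate 1, held 7 Tbx4 reads among 121216 reads other than Rn45s, beside 19 reads of Alx1 and 11 of Alx4, which are transcription factors of the craniofacial mesenchyme, and no read of Runx2, Ibsp or Bglap. The second, on PF plate 2, held 44 reads of Hoxb2, beside 2376 of Ibsp and 1001 of Bglap, and no read of the 9 cranial genes. All GP cells together held 1 Hoxb2 read, so Hoxb2 was the only member with more reads in a suture than in GP, and 1 cell made that difference. The cells in wells of the same name on other plates, 5 for the first and 2 for the second, had no read of the gene concerned.

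The 9 cranial genes, among them Alx1, Alx4, Tfap2a, Tfap2b, Zic1, Zic2 and Zic4, are used in the head mesenchyme and served as the mirror image. At least 1 was read in 6 GP cells, 7.69% (2.88 to 16), and in 144 suture cells, 58.3%, with 52.7% in COR, 52.9% in PF and 68.6% in SAG. In GP, Alx4 was read in 5 cells. All 6 of those GP cells also held a member, beside 65 of all 78 GP cells (83.3%). Of the 9 genes, 5 were called lower in GP than in PF (background 6.94%), 3 lower than in SAG (10.1%) and 2 lower than in COR (5.97%), and none was called higher.

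Genes of the Hox pathway outside the clusters were described in the same way. Of 9 cofactors of Hox proteins (Pbx, Meis and Pknox genes), 1 was called higher in GP against each suture. It was a different gene each time, Pknox1 against PF and Pbx3 against COR, and none was called higher against all 3. Pbx3 and Pknox2 were called lower against SAG, and none was called lower against PF or COR. The backgrounds against PF, SAG and COR were 8.08%, 16.3% and 6.7% for higher, and 6.94%, 10.1% and 5.97% for lower. Meis3 was read in 13 GP cells. Among 26 limb factors, only Shox2 was called higher in GP than in all 3 sutures. The count called higher was 5 against PF (background 8.08%), 6 against SAG (16.3%) and 4 against COR (6.7%), and 2, 0 and 4 were called lower (backgrounds 6.94%, 10.1% and 5.97%). Prrx1, a general factor of limb and skull mesenchyme, was read in 70.5% of GP cells, and its suture shares were 64.4% (PF), 64% (SAG) and 79.7% (COR). Shh, Isl1, Fgf8 and Pitx3 had no read in any tissue. Cdx1, Cdx2 and Cdx4, which act on Hox clusters in the embryo, had no read in any cell.

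Of 13 genes that flank the clusters on the chromosome, 10 were read in GP, in 6.41% to 59% of cells. None was called in either direction against PF or COR, and against SAG 3 were called higher and 1 lower. The nearest neighbours on the side of number 13, Evx1 and Evx2, had no read, whereas Cbx1 was read in 59% of GP and 54% of PF cells. Of 15 Polycomb genes, whose products keep Hox clusters silent, 2 were called higher and 2 lower in GP than in PF, 3 and 3 against SAG, and 1 and 1 against COR. Of 8 Trithorax genes, whose products keep them active, none was called higher and 1, 2 and 1 were called lower. Neither list had a gene called in 1 direction against all 3 sutures. Over all genes with a read, 8.08%, 16.3% and 6.7% were called higher against PF, SAG and COR, and 6.94%, 10.1% and 5.97% lower. None of the counts in this paragraph was tested against those shares.

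Among the noncoding RNAs of the clusters, 5 of 8 names were rows of the tables, and 2 of these had reads, both in GP alone. Hoxa11os was called higher in GP than in each suture, at 39.5 CPM on plate 1 and 18.4 CPM on plate 2. Mira was read in 5 cells, all on plate 2, with 102 reads. Hotair, Hottip and Hoxd3os1 had no read. The 6 microRNA genes of the clusters had no read in any cell.

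The genes outside the list with the most similar pattern were those with no read in any of 247 suture cells and a read in the most of the 78 GP cells. The first was Shox2, a homeobox gene of limb growth, in 29 cells (37.2%), 7 of 20 on plate 1 and 22 of 58 on plate 2, and 28 of these also held a member. It was followed by Hoxa11os in 20 cells, Mab21l2 in 19, F13a1 in 9 and Ppp1r14a in 8. The next 8 genes, Atp2a3, Cst6, Cyp26a1, Gpr17, Meox1, Mira, Rasgef1c and Zfp536, were tied at 5 cells, so all 13 are named for the 10 wanted. Cyp26a1, which breaks down retinoic acid, was read in 5 cells that all held a Hox gene and also Pitx1 or Tbx4. The other genes of this tie met Pitx1 or Tbx4 in 0 (Rasgef1c and Zfp536) to 4 (Cst6 and Meox1) of their 5 cells. Mab21l2 was read in 18 cells that held a member out of its 19, and F13a1, found on plate 2 alone, in 7 of 9. Of all 78 GP cells, 65 (83.3%) held a member, and 37 held a Hox gene together with Pitx1 or Tbx4. No overlap was tested against those shares. The likeness is one of presence and absence across 325 cells, and these genes were ranked by the values they are described with.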

How the data were processed

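Single CD51+;CD200+ cells were sequenced by the Picelli (SMART-seq2) protocol, without molecular identifiers. The authors deposited raw read counts per gene and cell in 8 tables, and the submitters' notes name STAR 2.5.3a, HTSeq and the build mm9. HTSeq's settings, the annotation and the use of strand are not given in the sources used here. Groups followed the title and source name, and 1 SAG cell whose description names another group was kept and left out in an alternative. No column was left without a sample. Files were read in Python 3.11.15 with pandas 2.3.3. TMM factors came from edgeR 4.0.16 in R 4.3.3. Calls and intervals were tested on simulated data, and thinning on a few deposited cells. The simulated reads varied only by sampling, so they do not show how calls behave for genes read in few cells. Each tissue is 1 sample, so no test was run.

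The members and lists were chosen with earlier results of these data known. All members were accounted for, and full values were given for those read in at least 10 GP cells, for Tbx5 and for any read in a suture cell. The values of 1 member and of a few listed genes are not reported here. Gene positions and exon lengths came from GENCODE vM1.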

Additional observations from a re-analysis of the deposited data

How the results depend on the processing

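The 16 quantities that carry the report were recomputed under up to 10 other settings, 6 of which applied to all of them, and the share of GP cells with a member also under 1 added after seeing the data. Of 120 recomputed values, 114 stayed within the counting interval (shares), within 1.5 times (counts), less than 1 away (the median) or within the SD of the 2 GP plates (CPM). Some of these values could not move, so the tally overstates the agreement. The SAG and COR shares of 0 stay 0 under any setting that only removes cells or reads. Leaving out the 1 SAG cell could change none of its 16 values, because that cell held no member read. With a gene counted as read only from 5 reads, the share of GP cells with a member was 71.8%. Under the filter of 1500 genes and 50000 reads the median was 3 members per GP cell. On plate 1 alone, the share of GP cells with a Hoxd gene was 20%, the summed level was 326.9 CPM and 5 members were read in at least 4 GP cells and in no suture cell. With Rn45s in the totals the summed level was 183.9 CPM. The cause of these moves was not tested beyond what each setting removes. On plate 1 or plate 2 alone a call rests on 1 plate ratio. Without GP cells read for a haematopoietic or endothelial marker the share with a member was 83.8%. No paired analysis was possible because the result comes from no test, and plate numbers do not pair tissues. Depth limits the genes at 0, for which 78 GP cells allow a share of up to 3.85%.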
